A study of Saccharomyces cerevisiae with 12 samples.

Results

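The genes described here encode core subunits of the 3 SMC (structural maintenance of chromosomes) complexes of budding yeast. They do not cover every subunit, and further ones were read among the partners. They were *SMC1*, *SMC2*, *SMC3*, *SMC4*, *SMC5* and *SMC6*, the condensin genes *BRN1*, *YCG1* and *YCS4*, and the cohesin gene *MCD1*. They were chosen by name and not by a rule on their signals, though earlier results of these data were known. All 10 were found among 5449 measured genes, each with 1 probe set that is paired with no other gene. Gene expression was measured on 12 Affymetrix Yeast Genome 2.0 arrays, 3 for each of 4 strains, to ask how loss of DNA topoisomerases changes transcription. The strains were *top1Δtop2ts*, *top1Δ*, *top2ts* and wild-type, all derivatives of W303a. *TOP1* is deleted in *top1Δ*, *top2ts* carries a temperature-sensitive *TOP2* allele, and *top1Δtop2ts* carries both. All 4 strains, wild-type included, were grown at 25°C in YPD, arrested with α-factor for 90 min and then kept at 37°C with α-factor for 90 min, so that arrest and heat were shared by every group. The study's methods name 3 independent sets of experiments. P-values measure the spread between the arrays of a strain, which for the signals as deposited was pooled over all genes.

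SMC proteins are long coiled-coil ATPases that join in pairs, and a kleisin subunit closes each pair into a ring that can hold DNA. Condensin (Smc2p and Smc4p with the kleisin Brn1p and the HEAT-repeat subunits Ycg1p and Ycs4p) compacts mitotic chromosomes, and its best known partner there is DNA topoisomerase II, which untangles sister chromatids. Cohesin (Smc1p and Smc3p with the kleisin Mcd1p, also called Scc1p) holds sister chromatids together until separase cuts Mcd1p at anaphase, so that Mcd1p is made anew in each cell cycle and its gene is transcribed in late G1. The Smc5/6 complex acts in DNA repair and on linked sister chromatids.

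The *TOP1* probe set gave 9.5, 0.2 and 0.8 in the 3 *top1Δtop2ts* arrays and 0.8, 0.8 and 1.2 in *top1Δ*, against 730.7 to 1301 over the *top2ts* and wild-type arrays. The *TOP2* probe set can show no loss, since a temperature-sensitive allele is still transcribed (1199.2 to 2211.4 in *top1Δtop2ts*, 1521.1 to 3875 in wild-type). Signals are MAS5 intensities on the deposited scale unless another scale is named, and levels of different probe sets cannot be set against each other. Poly-A spike-in RNAs had been added to equal numbers of cells before extraction, but their mean log2 level differed between the arrays, at 9.88 to 10.01 in the 4 arrays numbered 2 and 10.8 to 11.1 in the other 8. Values are therefore given on 3 scales: as deposited, with every array brought to the same spike-in level, and with equal array medians. The median change over all genes in *top1Δtop2ts* against wild-type was -0.54 (log2) as deposited and -0.69 on the spike-in scale, and -0.02 with equal medians, which takes a general change out. A call means an adjusted p under 0.05 from limma over all 5449 genes.

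In *top1Δtop2ts*, 6 of the 10 genes fell as deposited: *MCD1*, *SMC3*, *SMC6*, *BRN1*, *YCS4* and *YCG1*. Over all genes 15.1% fell, and 1.25% rose, as 0 of the 10 did. The log2 change of the 10 genes had a median of -1.34, and 9 of them lay below the median of all genes. The exception was *SMC5*, whose change was above 0 on every scale. On the spike-in scale 9 of the 10 fell, where 62.6% of all genes fell, and 0 rose, where 2.50% of all genes rose. The median of the 10 genes was -1.48 on that scale and -0.81 with equal medians, where the 6 genes called as deposited fell again (22.9% of all genes) and *SMC5* rose (21.7% of all genes). By complex, 3 of 5 condensin genes, 2 of 3 cohesin genes and 1 of the 2 *SMC5* and *SMC6* genes fell as deposited, and 5 of 5, 3 of 3 and 1 of 2 on the spike-in scale. RNA came from whole cultures, so a transcript present in fewer cells and one with fewer copies per cell cannot be told apart.

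The count as deposited rested on single arrays. With wild-type replicate 1 left out it was 1, with wild-type replicate 3 left out it was 2, and it was 3 without *top1Δtop2ts* replicate 2, and *MCD1* was called in each of these. On the spike-in scale the count stayed between 7 and 10 when each of the 12 arrays was left out in turn, and it was lowest without *top1Δtop2ts* replicate 3, where *SMC1* (adjusted p = 0.082 from limma) and *SMC2* (0.083) were lost. As deposited, all 3 *top1Δtop2ts* arrays lay below all 3 wild-type arrays for 5 of the 10 genes, where 28.7% of all genes did so, and above them for 0, where 1.27% did. On the spike-in scale this held for 9 of the 10 genes, where 69.8% of all genes lay below, and *SMC5* lay above (3.29% of all genes).

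**Figure D1:**
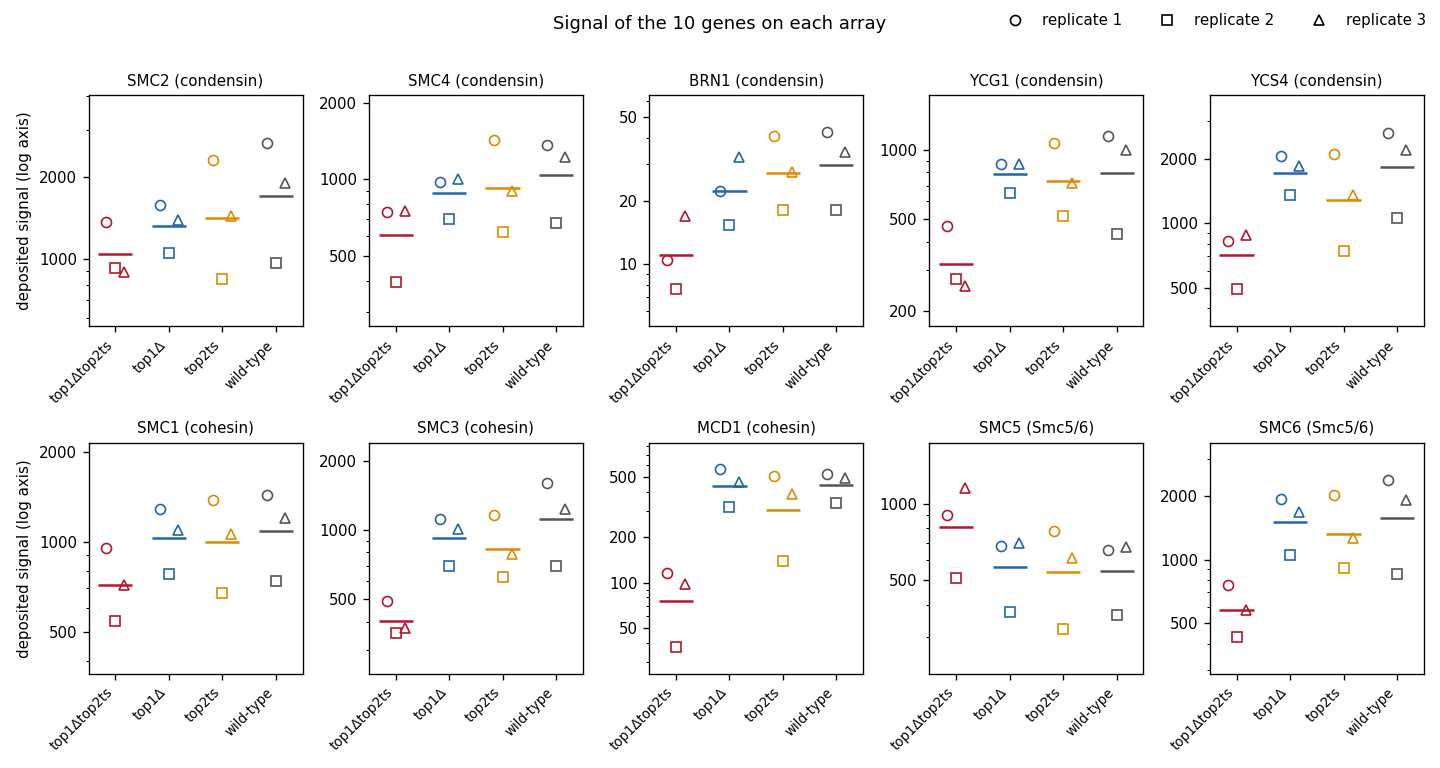
Signal of each gene as deposited, on a log axis, in 1 panel per gene. Each marker is 1 array, its shape gives the replicate number, and the line is the mean of the log2 values of a strain. In the *MCD1* panel the *top1Δtop2ts* arrays (37.5 to 116.1) lie below every other array, and in the *SMC5* panel they overlap the other strains.

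Condensin is described first. *YCS4*, which encodes a HEAT-repeat subunit, had signals of 828.2, 493.7 and 878.5 in *top1Δtop2ts* (replicates 1, 2 and 3), against 2629.3, 1061.6 and 2194.1 in wild-type. All 3 *top1Δtop2ts* arrays were below the lowest wild-type array. The log2 change was -1.36 (2.57-fold lower, adjusted p = 0.0080) and -1.51 on the spike-in scale (adjusted p = 2.0e-06).

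*YCG1*, the gene of the other HEAT-repeat subunit, had 468.9, 275 and 256.9 in *top1Δtop2ts*, against 1153.1, 433.3 and 1003.3 in wild-type. The groups overlapped through wild-type replicate 2, but not on the spike-in scale (355, 413 and 183 in *top1Δtop2ts*, against 927, 707 and 837 in wild-type). The log2 change was -1.31 (adjusted p = 0.011) as deposited and -1.45 (adjusted p = 1.6e-05) on the spike-in scale.

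*BRN1*, the kleisin gene of condensin, gave the dimmest probe set of the 10, at 10.5, 7.60 and 16.9 in *top1Δtop2ts*, against 42.3, 18.2 and 34.0 in wild-type. Its groups did not overlap, and its log2 change was -1.43 (adjusted p = 0.0052). The level of the array's own Tag controls, which match no yeast transcript, was exceeded on 11 of 12 arrays and not in *top1Δtop2ts* replicate 1, where the 95th percentile of these controls was 14.2. The call was lost when the signal was taken as log2(signal + 16), which gave -0.76 (adjusted p = 0.11), or when the prior variance followed intensity (adjusted p = 0.10).

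The genes of the SMC subunits of condensin did not pass the test as deposited. *SMC2* had 1370.1, 926 and 891.4 in *top1Δtop2ts*, against 2678.6, 965.9 and 1906.9 in wild-type, a log2 change of -0.71 (adjusted p = 0.18). *SMC4* had 745.1, 395.6 and 753.2 in *top1Δtop2ts*, against 1368.4, 674.4 and 1221.4 in wild-type, a log2 change of -0.78 (adjusted p = 0.14). Both sets of arrays overlapped as deposited and were apart on the spike-in scale, where both genes fell, by 0.85 (adjusted p = 0.0050) and 0.93 (adjusted p = 0.0012) on the log2 scale. With the median change of all genes taken off, the deposited changes were -0.16 for *SMC2* and -0.24 for *SMC4*, against -0.76 for *YCG1*, -0.82 for *YCS4* and -0.88 for *BRN1*.

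Within cohesin the kleisin gene had the most negative change of the 10 genes. *MCD1* had signals of 116.1, 37.5 and 98 in *top1Δtop2ts*, against 523.5, 336.1 and 495.4 in wild-type. Every *top1Δtop2ts* array was below every array of the other 3 strains, and array by array of the same replicate number the *top1Δtop2ts* signal was 22.2, 11.2 and 19.8% of wild-type. The mean was 83.9 ± 41.2 in *top1Δtop2ts* and 451.7 ± 101 in wild-type (SD, n = 3 each). The log2 change was -2.56 (95% interval -3.33 to -1.79, 5.89-fold lower, adjusted p = 1.2e-08), and 0.404% of all genes had a lower one. *MCD1* fell by 2.70 on the log2 scale after spike-in scaling (adjusted p = 5.4e-12) and had a change of -2.03 with equal medians (adjusted p = 5.1e-05), and it was called with each of the 12 arrays left out (-2.87 to -2.06).

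*SMC3*, an SMC subunit of cohesin whose junction with the kleisin is the exit gate of the ring, had 490.4, 355.8 and 375.2 in *top1Δtop2ts*, against 1597.1, 696.9 and 1239 in wild-type. The groups did not overlap, and the change was -1.47 on the log2 scale (2.76-fold lower, adjusted p = 0.0038). *SMC1*, its partner, had 950.3, 543.2 and 714.9 in *top1Δtop2ts*, against 1428.6, 741.2 and 1203.3 in wild-type. These groups overlapped as deposited, with a change of -0.60 (95% interval -1.36 to 0.17, adjusted p = 0.26), and *SMC1* fell on the spike-in scale, by 0.74 (adjusted p = 0.0080). Its deposited change was -0.05 relative to the median of all genes, and 45.4% of all genes had a lower one.

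*SMC5* and *SMC6* encode the partners of 1 heterodimer, and their changes had opposite signs on all 3 scales. *SMC6* had 762.1, 433.3 and 581 in *top1Δtop2ts*, against 2383, 853.3 and 1915.4 in wild-type, with no overlap. Its log2 change was -1.45 (2.73-fold lower, adjusted p = 0.0044) as deposited and -1.59 (adjusted p = 1.0e-06) on the spike-in scale, where the means were 547 ± 121 in *top1Δtop2ts* and 1636 ± 264 in wild-type (SD, n = 3 each).

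*SMC5* had 901.5, 509.7 and 1155.8 in *top1Δtop2ts*, against 658.9, 364.7 and 678.2 in wild-type. The signal was higher in *top1Δtop2ts* than in the wild-type array of the same number in all 3, at 137, 140 and 170% of it, although the groups overlapped. The change of 0.57 (95% interval -0.20 to 1.34, adjusted p = 0.29) did not pass the test. On the spike-in scale the arrays no longer overlapped, at 683, 765 and 823 in *top1Δtop2ts* against 530, 595 and 566 in wild-type, and the change of 0.42 (95% interval -0.04 to 0.89, adjusted p = 0.10) did not pass either. Relative to the median of all genes *SMC5* lay 1.11 higher, and with equal medians it rose by 1.09 (2.13-fold, adjusted p = 2.2e-04). A lower deposited change was measured for 96.4% of all genes.

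**Figure D2:**
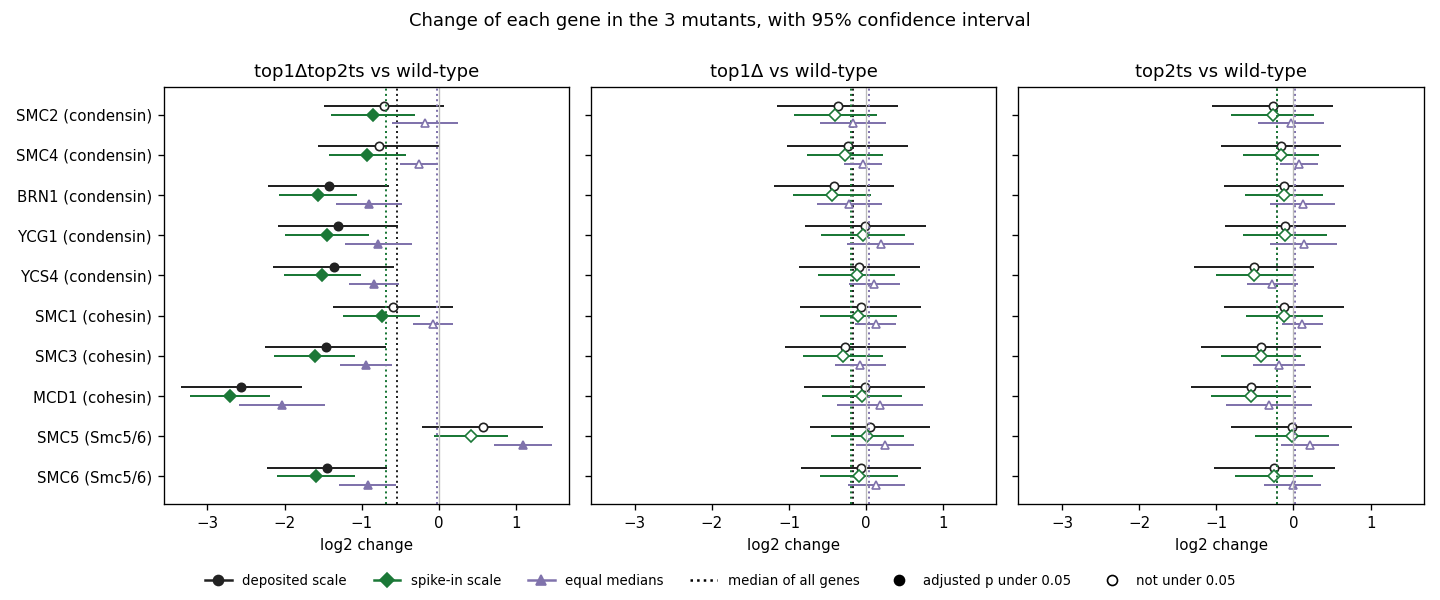
Log2 change of the 10 genes against wild-type (x axis) in *top1Δtop2ts*, *top1Δ* and *top2ts*, on 3 scales. Bars are 95% intervals from limma, filled points passed at an adjusted p under 0.05, and dotted lines mark the median of all genes. Filled points stand in the *top1Δtop2ts* panel alone, and *MCD1* is lowest there on every scale (-2.56 as deposited).

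**Figure D3:**
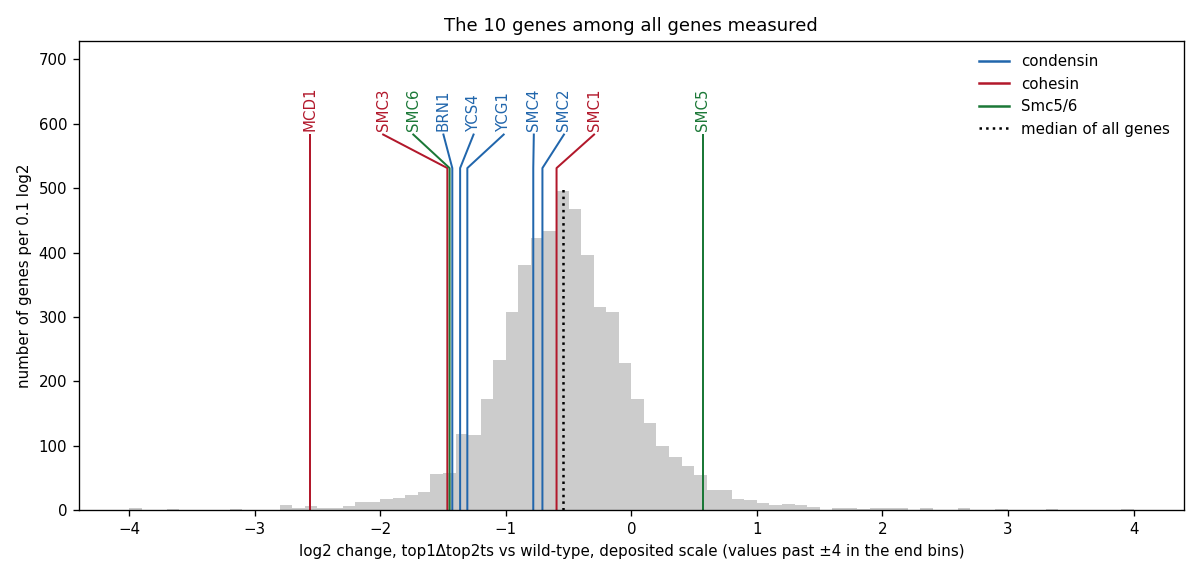
Distribution of the log2 change in *top1Δtop2ts* against wild-type over 5449 genes as deposited, with the 10 genes marked. *MCD1* lies in the far lower tail (-2.56) and *SMC5* in the upper one (0.57), on either side of the median of all genes at -0.54.

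A ratio of signals within an array carries no array scale, so it shows unequal change of a pair of genes whatever factor scales the array. Ratios were taken for 14 pairs of subunits of the same complex, chosen after the data were seen. *SMC5* over *SMC6* was 0.24, 0.23 and 0.99 (log2) in *top1Δtop2ts*, against -1.85, -1.23 and -1.50 in wild-type, a change of 2.02 or 4.04-fold. *SMC1* over *MCD1* was 3.03, 3.86 and 2.87 in *top1Δtop2ts*, against 1.45, 1.14 and 1.28 in wild-type, a change of 1.96 or 3.90-fold. Neither pair overlapped between the strains. A larger change was found for 2.96% of all pairs of measured genes in the case of *SMC5* and *SMC6*, and for 3.23% in the case of *SMC1* and *MCD1*.

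The other ratios changed by smaller amounts. *SMC1* over *SMC3* was 0.95, 0.61 and 0.93 in *top1Δtop2ts*, against -0.16, 0.09 and -0.04 in wild-type, a change of 0.87. *SMC3* over *MCD1* changed by 1.09, and in condensin the largest changes without overlap were *SMC4* over *BRN1* (0.64), *SMC2* over *YCG1* (0.60) and *SMC4* over *YCS4* (0.58). The size for *SMC4* over *BRN1* is uncertain, since its highest ratio (6.15) came from *top1Δtop2ts* replicate 1, where *BRN1* (10.5) was below the Tag control level (14.2). *SMC2* over *SMC4*, the SMC pair of condensin, changed by 0.07 (exact permutation p = 1, two-sided). In all, 7 of 14 ratios did not overlap between *top1Δtop2ts* and wild-type, 4 between *top1Δ* and wild-type and 5 between *top2ts* and wild-type. Among all pairs of genes the shares were 53.7%, 35.8% and 29.6% in the same order, so these counts were near the background. The 7 reached 0.10, the smallest p that an exact permutation test of 3 arrays against 3 can give, and 0.26 after Benjamini-Hochberg adjustment over 42 tests.

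**Figure D4:**
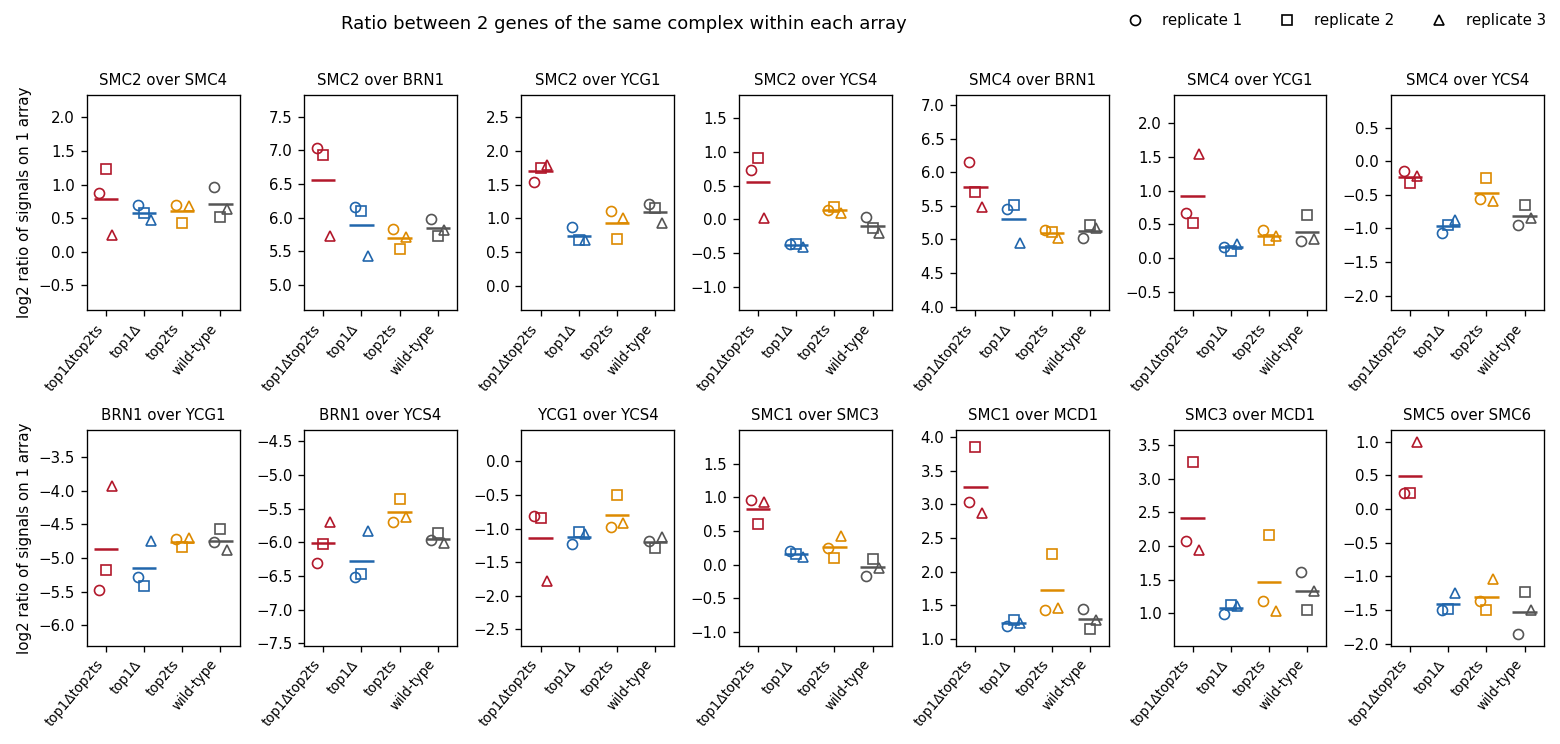
Within-array log2 ratio of the signals of 14 pairs of subunits, 1 panel per pair and 1 marker per array, with every panel spanning the same range. The *top1Δtop2ts* arrays stand above the other strains for *SMC5* over *SMC6* (0.23 to 0.99) and *SMC1* over *MCD1* (2.87 to 3.86). For *SMC2* over *SMC4* they spread to both sides of the other strains (0.24 to 1.23).

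In the single mutants none of the 10 genes passed the test on any of the 3 scales. In *top1Δ* 0.936% of all genes fell and 0.0551% rose as deposited, and 6.44% fell and 0.147% rose on the spike-in scale. In *top2ts* 0.532% fell and 0.330% rose as deposited, and 2.62% fell and 0.587% rose on the spike-in scale. The deposited changes of the 10 genes ran between -0.41 and 0.05 in *top1Δ* (median -0.08) and between -0.55 and -0.02 in *top2ts* (median -0.21). With equal medians the medians were 0.12 in *top1Δ* and 0.03 in *top2ts*, so their sign depends on the scale. After spike-in scaling all 3 *top1Δ* arrays were below all wild-type arrays for *BRN1* (15.1% of all genes), as were all 3 *top2ts* arrays for *SMC3* and *YCS4* (23.9% of all genes).

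*MCD1* had 564.9, 318.6 and 465.1 in *top1Δ* and 511.3, 140.2 and 385.1 in *top2ts*, against the wild-type signals of 523.5, 336.1 and 495.4. The *top1Δ* arrays lay within or beside the wild-type range, and the *top2ts* array of replicate 2 was well below it. The change in *top1Δ* was -0.02 (95% interval -0.79 to 0.75) as deposited and 0.18 with equal medians, and the change in *top2ts* was -0.55 (95% interval -1.32 to 0.22). Both intervals hold 0 and reach well below it. *YCS4*, which had the next lowest change in *top2ts* (-0.51), had 2109.4, 738 and 1357.1 there and 2047.7, 1349.9 and 1840.3 in *top1Δ*.

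The change of *top1Δtop2ts* was then compared, in log2, with the changes of *top1Δ* and *top2ts* added up. *MCD1* departed from that sum by -1.99 (adjusted p = 0.018 from limma) and was the only member called, among 0.679% of all genes below the sum and 1.65% above it. The call was lost when the prior variance followed intensity (adjusted p = 0.087), and without 6 of the 12 arrays: without wild-type replicate 3 (-2.07), *top1Δ* replicates 1 (-1.80) and 3 (-1.94), *top2ts* replicates 1 (-1.61) and 3 (-1.81), and *top1Δtop2ts* replicate 2 (-1.48). On the spike-in scale *MCD1* departed by -2.10 (adjusted p = 2.7e-05) and was called without any 1 of the 12 arrays.

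*YCG1* (-1.31, adjusted p = 0.015) and *SMC6* (-1.25, adjusted p = 0.013) were also below the sum on the spike-in scale, where 6.09% of all genes were below and 4.53% above. Without *top2ts* replicate 1 *MCD1* alone was called on that scale. With equal medians *BRN1*, *SMC3* and *YCS4* joined these 3 genes (15.9% of all genes below, 14.4% above). *SMC5* was above the sum by 0.54 (adjusted p = 0.97), and *SMC2* was at -0.07, which turned to 0.018 with equal medians.

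Partners of the 3 complexes were read as lists, beside 15.1% of all genes that fell as deposited and 62.6% on the spike-in scale. Of 8 measured cohesin partners, 2 fell in *top1Δtop2ts*: *PDS5* (-1.40, adjusted p = 0.0064), which binds the ring, and *RAD61* (-1.07, adjusted p = 0.042), the yeast Wapl, which opens it. The list had a median of -0.69, against -0.54 over all genes, and the 5 of 8 that fell on the spike-in scale were at the share over all genes. *IRR1*, the gene of a further cohesin subunit, was called neither as deposited (-0.36, adjusted p = 0.50 from limma) nor on the spike-in scale (-0.50, adjusted p = 0.055). Securin, *PDS1*, fell by 1.36 (adjusted p = 0.0081), and separase, *ESP1*, had a change of -0.90 (adjusted p = 0.089).

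Among 6 partners of Smc5/6, *NSE5* (-1.19, adjusted p = 0.023) and *NSE1* (-1.11, adjusted p = 0.036) fell, with a list median of -0.62, and 5 of 6 fell on the spike-in scale, where 62.6% of all genes did. *NSE4*, the kleisin gene of Smc5/6, was not called as deposited (-0.58, adjusted p = 0.28 from limma). It fell on the spike-in scale (-0.73, adjusted p = 0.013). Among 7 genes of condensin recruitment and rDNA, *SGO1* (shugoshin, -1.28, adjusted p = 0.013) and *CDC5* (the Polo kinase, which phosphorylates condensin, -1.22, adjusted p = 0.020) fell. In the Rad50 complex, which is also built on an SMC-like ATPase, 1 of 3 genes fell, *XRS2* (-1.27, adjusted p = 0.014). In a list of 5 genes, the topoisomerase genes and the partners of Top3p, *TOP1*, which is deleted, and *TOP3* (-1.32, adjusted p = 0.010) fell, and *TOP2* had a change of -0.66 (adjusted p = 0.21).

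*MCD1* belongs to the genes of late G1 and early S phase, which the factors MBF and SBF switch on past the arrest point of α-factor. Of 26 other such genes 10 fell in *top1Δtop2ts* and 0 rose, where 15.1% of all genes fell, with a median of -1.01, against -0.54 over all genes. After spike-in scaling 22 of 26 fell, where 62.6% of all genes did. *CLN2* (-1.99, adjusted p = 2.5e-05) and *CLN1* (-1.68), the G1 cyclins, fell, as did *DUN1* (-1.96, adjusted p = 3.3e-05), a checkpoint kinase, and *RNR1* (-1.68), the large subunit of ribonucleotide reductase. On the spike-in scale the signals of the 26 genes summed to 9796 to 14111 in *top1Δtop2ts*, 22537 to 30855 in *top1Δ*, 19150 to 26732 in *top2ts* and 23281 to 29750 in wild-type. Every *top1Δtop2ts* sum was below every sum of the other strains on that scale.

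Lists of other phases of the cycle were read in the same way. Of 7 core histone genes, transcribed in S phase, 5 fell, including *HTA2* (-2.76, adjusted p = 5.2e-10) and *HTB2* (-2.75, adjusted p = 5.7e-10). Their spike-in scaled sums were 15491 to 20972 in *top1Δtop2ts*, 40040 to 51771 in *top1Δ*, 45316 to 63661 in *top2ts* and 42396 to 50264 in wild-type. Of 8 genes of G2 and M phase 4 fell, led by the mitotic cyclin *CLB1* (-2.78, adjusted p = 3.9e-10), with spike-in scaled sums of 2214 to 3328 in *top1Δtop2ts*, 3707 to 5442 in *top1Δ*, 4026 to 6168 in *top2ts* and 6411 to 8802 in wild-type. The sums of both single mutants were thus also below every wild-type sum, and *CLB1* also fell in *top1Δ* (-1.40, adjusted p = 0.038). Of 7 genes of the M/G1 boundary 2 fell, *ASH1* (-2.51, adjusted p = 2.1e-08) and *PIR1* (-1.57, adjusted p = 0.0017), and the list median was -0.03. With equal medians 2 of the 7 fell (22.9% of all genes) and 4 rose (21.7% of all genes). The spike-in scaled sums of these 7 genes were 4627 to 6546 in *top1Δtop2ts*, 4496 to 7754 in *top1Δ*, 10304 to 14186 in *top2ts* and 10027 to 14739 in wild-type. These sums were carried mostly by *ASH1* and *PIR1*, whose wild-type signals as deposited were 4255.8 to 6380.3 and 2861.8 to 4313.2. The *top1Δ* sums were thus also below every wild-type sum, and 1 of the 7 genes fell in *top1Δ* as deposited, where 0.936% of all genes did.

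Of 12 genes of the pheromone response, the programme that α-factor induces, 0 fell and 0 rose as deposited (by limma, median -0.10), 2 fell on the spike-in scale (62.6% of all genes) and 5 rose with equal medians (21.7% of all genes). Their spike-in scaled sums were 56095 to 74721 in *top1Δtop2ts*, 55952 to 97197 in *top1Δ*, 91845 to 112205 in *top2ts* and 55520 to 119375 in wild-type. Those of each mutant overlapped wild-type. In *top2ts* the deposited median was 0.68, against -0.22 over all genes. There 1 of the 12 rose as deposited (0.330% of all genes) and 3 on the spike-in scale (0.587%). With equal medians 7 rose in *top2ts*, where 182 of 5449 genes did. Of 4 genes of α cells, which the a-type strains should not express, 1 rose and 0 fell as deposited, where 1.25% of all genes rose. The gene that rose, *MF(ALPHA)1*, had signals of 126, 93.8 and 140.9 in *top1Δtop2ts*, against 26.2, 4.6 and 30.5 in wild-type. In wild-type 1 of 3 arrays was above its Tag control level, so that the size of its rise (adjusted p = 2.6e-11 from limma) is not well measured. *SAG1* (1136.9, 645.3 and 931.3 in wild-type), *STE3* and *MF(ALPHA)2* were above that level on all 3 wild-type arrays and were not called as deposited. With equal medians 3 of the 4 genes rose, where 21.7% of all genes did. Among 3 reference genes 0 fell as deposited, 1 fell on the spike-in scale (*ACT1*, adjusted p = 0.046) and 1 rose with equal medians (*ESC1*, adjusted p = 0.0098). The brightest were *ACT1* (-0.42 as deposited) and *TDH1* (-0.16). The study's methods state that aliquots of each sample were taken for cell sorting analysis to check the arrest, but those data were not shown. No cell-cycle staging was used here, so whether cell-cycle position had a part in the fall of *MCD1* was not tested.

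**Figure D5:**
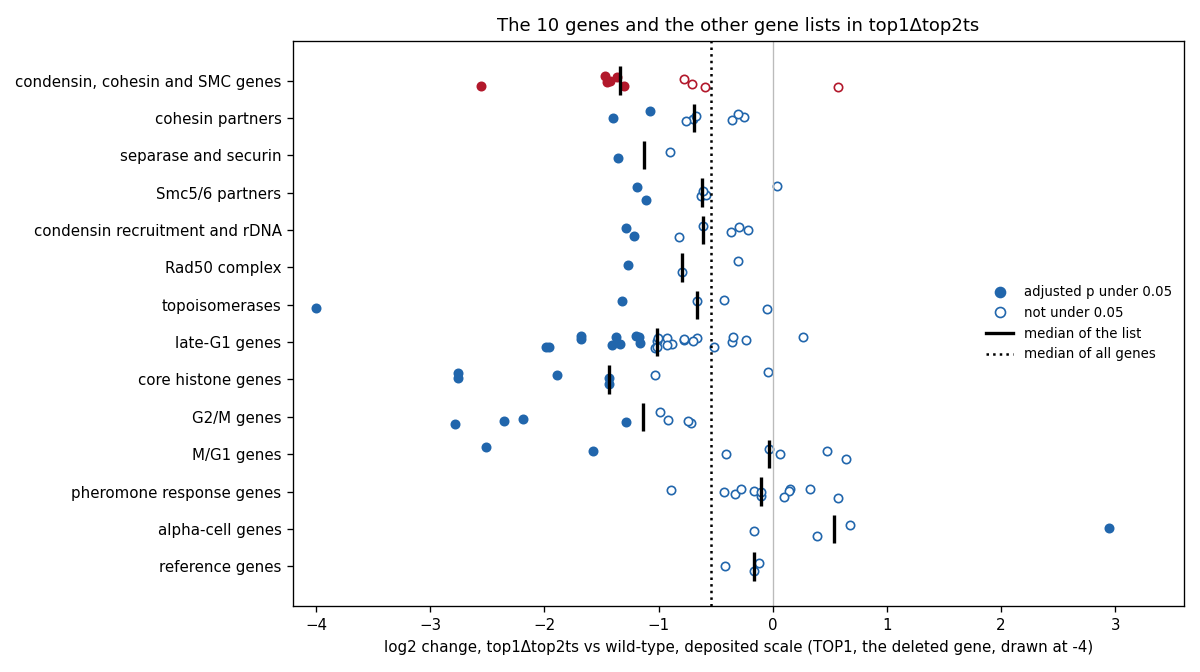
Log2 change in *top1Δtop2ts* against wild-type as deposited, 1 point per gene, for the 3 complexes and the lists of partners and cell-cycle genes; *TOP1* is drawn at the edge of the axis. The median of the late-G1 list lies at -1.01 and that of the pheromone-response list at -0.10.

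The genes most like *MCD1* over the 12 arrays, by the root mean square difference of their log2 profiles after centring of arrays and genes, were *TOS4* (0.259), *SVS1* (0.285) and *GPI15* (0.303), against a median of 0.936 over all genes. Their own changes in *top1Δtop2ts* were -2.53, -2.52 and -2.14. Changes near that of *MCD1* follow from the choice, since the same arrays were used to pick these genes. Most like *SMC6* were *SDT1* (0.109), *MET22* (0.144) and *ORC1* (0.146), against a median of 0.499. Most like *SMC5* were *YOL036W* (0.120), *STE18* (0.140) and *AIM11* (0.144), against a median of 0.523, and *YOL036W* is also the neighbour of *SMC5* on the chromosome.

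Of the 20 direct neighbours of the 10 genes in the gene order of assembly R64, 18 were measured. In *top1Δtop2ts* 4 of these fell and 0 rose as deposited (by limma), where 15.1% of all genes fell, and 14 fell on the spike-in scale, where 62.6% did. Their median change was -0.74, against -0.54 over all genes. The neighbours of *MCD1*, *ATP16* and *NHP10*, had changes of -1.07 (adjusted p = 0.043) and -0.87 (adjusted p = 0.10), both smaller in size than that of *MCD1*. All 10 genes have coding sequences longer than the median of 1236 nt over the measured protein-coding genes. The shortest was that of *MCD1* at 1701 nt, and the longest that of *SMC4* at 4257 nt, whose change of -0.78 was among the smaller ones. *SMC5* (3282 nt) and *SMC6* (3345 nt) have similar coding lengths and changes of 0.57 and -1.45.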

How the data were processed

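The authors hybridised RNA of 4 strains to 12 arrays and computed signals with the MAS5 algorithm of the GeneChip Operating software. The deposited table holds these intensities on a linear scale for 10928 probe sets. Of these, 5498 were paired with 1 gene and had a signal above 0 on some array. Their methods describe external normalization to spike-ins, but the spike-in level of the deposited arrays differed. Where a gene had several probe sets their log2 signals were averaged (5449 genes), 4 values of 0 were set to 0.1, and no further filter was applied. limma 3.58.1 (R 4.3.3) was fitted to all 12 arrays on the deposited scale, with 8 residual degrees of freedom, with two-sided p-values and Benjamini-Hochberg adjustment over all genes at 0.05. The fit gave every gene the same standard error, 0.39 for a change, so p-values and intervals as deposited rest on a spread pooled over all genes. They do not measure a gene's own spread, and the very small p-values hold only under that shared spread. Spike-in scaling used 36 probe sets of the dap, lys, phe and thr controls. The number of arrays limits the precision. The code was tested on simulated data.

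The members, lists and tests were chosen with earlier results of these data known. Named were all members, *TOP1* and *TOP2*, from each list at most 4 genes that passed, by size of change, or the 2 brightest where none did, and the 3 genes nearest in profile to each of the 3 members with the widest range of strain means. *ESP1*, *IRR1*, *NSE4*, *ESC1*, *SAG1*, *STE3*, *MF(ALPHA)2* and the neighbours of *MCD1* were singled out after their values were seen. Of 112 list genes 108 were used, and the others are not reported here. Alternatives were other scalings, a block for the replicate number, an intensity trend, a fit of 6 arrays, filters, an added constant and leaving out each array.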

Additional observations from a re-analysis of the deposited data

Results flagged for a closer look

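*MCD1* was set apart by the test of the difference between the single and double mutants: its change in *top1Δtop2ts* departed from the sum of the changes in *top1Δ* and *top2ts* by -1.99 on the log2 scale (adjusted p = 0.018 from limma). As deposited the call was lost without any 1 of 6 arrays, and when the prior variance followed intensity (adjusted p = 0.087). It held on the spike-in scale with each of the 12 arrays left out.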

How the results depend on the processing

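None of the 10 changes in *top1Δtop2ts* against wild-type turned direction under any alternative run. Added after the data were seen were spike-in scaling that includes the 6 Trpn probe sets, which lay at background, and leaving out the 4 arrays of replicate number 2. Against 6 genes called in *top1Δtop2ts*, 10 were called with the Trpn spike-ins and 10 without replicate number 2, and 1 to 8 with each array left out. Over all genes 889 were called, against 3546 with spike-in scaling, 2433 with equal medians, 2580 by quantile normalization, 3538 with Trpn, 2929 without replicate number 2 and 279 to 1911 with each array left out. In *top1Δ* 54 were called, against 359, 511, 448, 511, 454 and 16 to 133 in the same order, 22 with an intensity trend, 101 in the fit of 6 arrays and 33 with log2(signal + 16). In *top2ts* 47 were called, against 175, 333, 366, 245, 97 and 32 to 77 in the first order. For the departure from the sum 127 genes were called, against 579, 1647, 1579, 792, 572 and 90 to 205, and 76 with the trend. Of the 10 genes 1 departed, against 3, 6, 6 and 4 in the first 4 settings, 0 with the trend (*MCD1*, adjusted p = 0.087 from limma) and 0 to 1 with each array left out, and the fit of 6 arrays could not be made. The causes were not tested.

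The labels give the strains the same replicate numbers, but do not say that a number marks a shared set. By the rule used the numbers were not taken to pair the samples: same-numbered arrays had deviations correlated between -0.03 and 0.44, with 10 of 18 over 0.1. A shared level by number is still seen, since 10 of 12 arrays correlated best with their own number. The arrays numbered 2 also had the lowest spike-in levels (9.88 to 10.01). With the replicate number as a block all 10 genes were called in *top1Δtop2ts*, 9 lower and *SMC5* higher (0.57, adjusted p = 0.0047), and 6 departed from the sum. Over all genes the block gave 3687 calls in *top1Δtop2ts*, 706 in *top1Δ*, 556 in *top2ts* and 1267 for the departure.

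Changes that turned sign were all of genes not called. With equal medians and by quantile normalization, the changes in *top1Δ* were 0.18 and 0.24 for *MCD1*, 0.12 and 0.13 for *SMC1*, 0.13 and 0.096 for *SMC6*, 0.19 and 0.18 for *YCG1* and 0.11 and 0.056 for *YCS4*, and 0.048 for *BRN1* by quantile normalization. In *top2ts* they were 0.12 and 0.044 for *BRN1*, 0.12 and 0.11 for *SMC1*, 0.075 and 0.067 for *SMC4*, 0.22 and 0.24 for *SMC5* and 0.13 and 0.12 for *YCG1*. The departure of *SMC2* was 0.018 and 0.078, and ran from -0.44 to 0.34 with each array left out. Leaving out each array moved the changes in *top1Δ* between -0.22 and 0.21 for *MCD1*, -0.35 and 0.13 for *SMC1*, -0.24 and 0.34 for *SMC5*, -0.51 and 0.23 for *SMC6*, -0.45 and 0.26 for *YCG1* and -0.48 and 0.17 for *YCS4*. In *top2ts* it moved them between -0.47 and 0.17 for *BRN1*, -0.93 and 0.0011 for *MCD1*, -0.40 and 0.16 for *SMC1*, -0.68 and 0.10 for *SMC2*, -0.48 and 0.12 for *SMC4*, -0.32 and 0.34 for *SMC5*, -0.69 and 0.051 for *SMC6* and -0.54 and 0.16 for *YCG1*. *BRN1* is limited by its low signal.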
